A study of Homo sapiens with 2 samples.

Results

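The unfolded protein response and the integrated stress response were described here through 42 genes: stress sensors, transcription factors, chaperones of the endoplasmic reticulum (ER) and genes of ER-associated degradation. The members were chosen by gene symbol from that list, out of 19775 genes with a symbol of their own on the array. The rule uses no measured value, but the list was chosen with earlier results of these data known. C4-2B is an established prostate cancer line that responds to enzalutamide, a drug that blocks the androgen receptor. C4-2B-MDVR was derived from it by selection under lasting enzalutamide exposure and no longer responds. RNA of each line was hybridized once to an Affymetrix array. Both lines were untreated and were grown alike in RPMI-1640 medium with complete serum, so the arrays compare untreated cultures and not cells under a stress agent. The resistant group is 1 selected line, and whether it is a clone or a pool is not given in the sources used here. The description of the resistant sample names a docetaxel-resistant line, TaxR, and that of C4-2B calls it docetaxel-sensitive, whereas title, source and cell line labels name C4-2B-MDVR. The cell line label was followed. Differences are log2 values of the library labelled C4-2B-MDVR after subtraction of C4-2B, so a positive one means higher in the resistant line.

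Secreted and membrane proteins fold in the ER, where the chaperone BiP (HSPA5) binds unfolded chains and also holds the stress sensors IRE1 (ERN1), PERK (EIF2AK3) and ATF6 in check. When unfolded proteins build up, IRE1 splices the mRNA of XBP1, ATF6 is cut to release a transcription factor, and PERK phosphorylates the translation factor eIF2 alpha. Phosphorylation of eIF2 alpha, which the kinases HRI (EIF2AK1) and GCN2 (EIF2AK4) also carry out in response to haem or mitochondrial stress and to amino acid shortage, lowers general translation while ATF4 is translated more. Luminal prostate cells are secretory, and androgen signalling is known to act on their ER stress pathways. Splicing, cleavage and phosphorylation, by which these sensors act, are not read by the array, which measures the level of each mRNA averaged over the culture. A smaller share of cells with an mRNA and less of it per cell cannot be told apart.

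A single array per line has no replicate error, so differences carry neither an SE nor a p-value, and precision is limited by the number of arrays. The median of all probe sets was an intensity of 41.9 for C4-2B, against 43.5 for the resistant line. These medians served as the detection floor: a gene was above it when its brighter array reached that array's median. Of 10 fixed luminal prostate markers, 8 had a probe set with a single symbol and all 8 were above the floor, among them HOXB13, FOXA1, KRT18 and EPCAM. The kallikrein KLK2 was lower in C4-2B-MDVR (−2.10), and the other 7 lay between −0.31 and 0.32 in their chosen probe sets. Another probe set was at −1.18 for FOXA1 and at 0.68 for HOXB13. Of 8 fibroblast markers 3 were above the floor, COL1A1 (−0.23, with another probe set at 1.20), DCN (0.20) and PDGFRB (−0.09), with COL1A2, COL3A1, LUM, PDGFRA and FAP under it. Of the 6 blood and endothelial markers with a single symbol 3 were above it, at differences of −0.13 to 0.21, with PTPRC, CD14 and CDH5 under it. The part of these markers in the results below was not tested. The excess of 3′ over 5′ control signal, a sign of RNA length, was 0.30 for GAPDH in C4-2B against 0.26 in C4-2B-MDVR, and 0.74 against 0.52 for ACTB. Its part in the results was not tested.

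Most members of the stress response were at similar levels on the arrays of both lines. DDIT4, an inhibitor of mTORC1 signalling that stress induces, was the 1 member with a difference of 2-fold or more, and it was higher in C4-2B-MDVR. Of the 42 members 41 had a probe set with a single symbol, and all 41 were above the floor. SYVN1 was represented by 1 probe set that carries a second symbol and was not used. So 1 of 41 members was 2-fold or more higher, where the background over all 13437 named genes above the floor was 3.17%. Lower members by 2-fold or more numbered 0, with a background of 3.5%. At 1.5-fold or more, 5 members were higher (12.2%, background 8.26%) and 3 were lower (7.32%, background 9.32%), and 33 lay within 1.5-fold. When values under the floor were set to the floor, 4 and not 5 were higher, ERO1B being the one lost. Centring each array on its median gave 5 lower members (12.2%, against 10.8% of all genes). Taking the dimmest probe set above the floor gave 9 (22.0%, against 10.3% of all genes). The median difference of the members was −0.08, with a range from −0.89 to 1.10, and the median over all genes was 0.04. Members with a mean log2 level of 8 or more numbered 32, with 3 higher (9.38%, background at that level 6.09%) and 3 lower (9.38%, background 10.4%) by 1.5-fold. Their median difference was −0.18 with 65.6% below 0, against −0.04 and 54.2% for all genes at that level. In the values as deposited the shares of members beyond 1.5-fold thus lay near those of all genes. With the dimmest probe sets the share of lower members was above theirs.

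**Figure D1:**
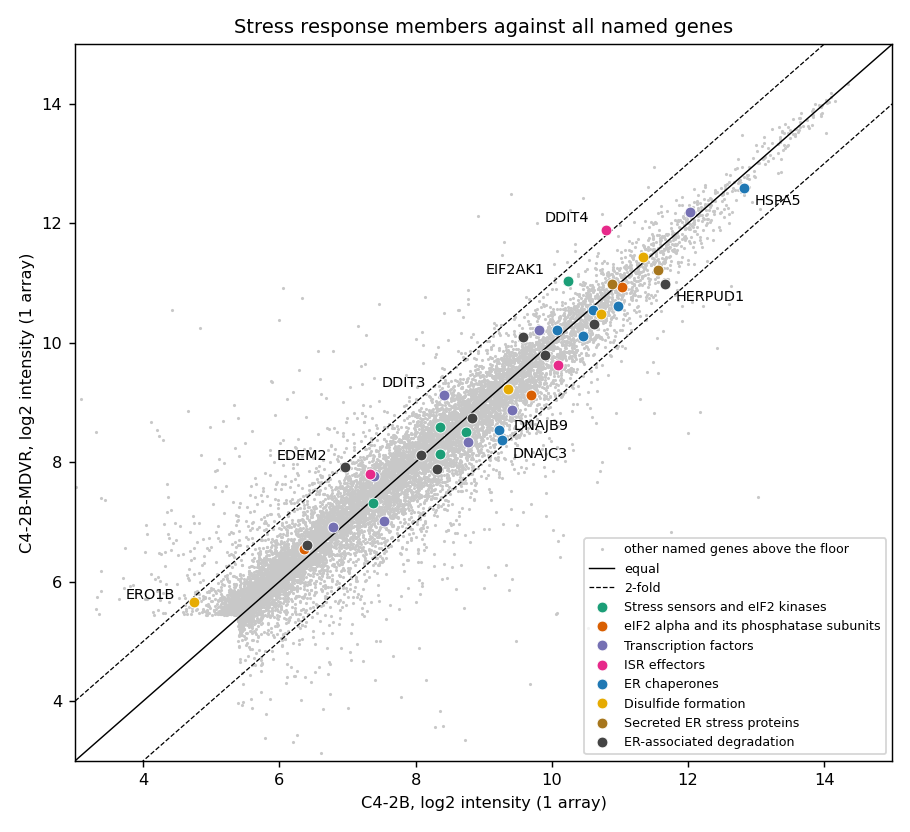
Log2 intensity of each gene in C4-2B (x axis) against C4-2B-MDVR (y axis), 1 array each, with the 41 members coloured by role and all other named genes above the floor in grey. The solid line marks equal values and the dashed lines 2-fold; DDIT4 lies above the upper dashed line and every other member lies between them.

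The 8 members beyond 1.5-fold came from 6 of the 8 roles described below. The higher ones were DDIT4, the mannosidase-like EDEM2, the oxidase ERO1B, the eIF2 alpha kinase EIF2AK1 and the transcription factor DDIT3. The lower ones were the co-chaperones DNAJC3 and DNAJB9 and the degradation factor HERPUD1. Just short of the threshold were PPP1R15B, 1.49-fold lower, and CREB3L4, 1.46-fold lower.

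**Figure D2:**
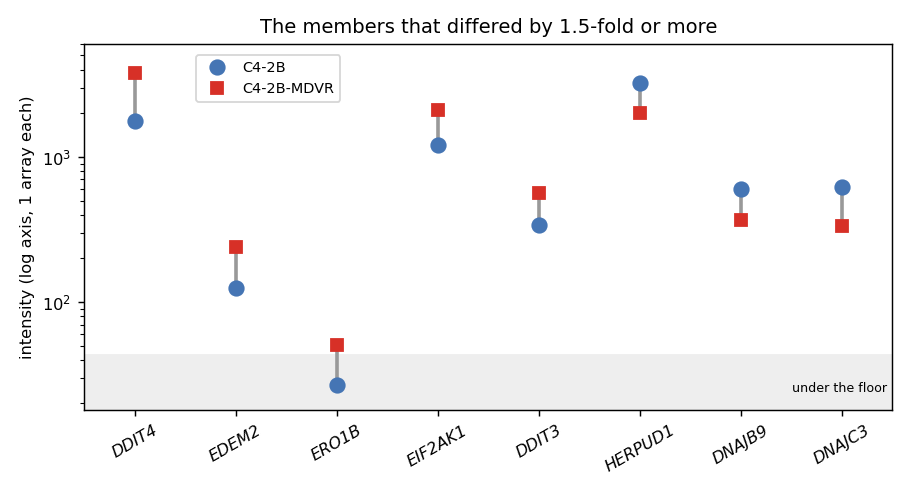
Intensity (log axis) of the 8 members that differed by 1.5-fold or more, in C4-2B (circles) and C4-2B-MDVR (squares), 1 array each; the grey band lies under the detection floor. DDIT4, EDEM2, ERO1B, EIF2AK1 and DDIT3 are higher in C4-2B-MDVR and HERPUD1, DNAJB9 and DNAJC3 are lower, and the C4-2B value of ERO1B lies under the floor.

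Among the sensors and the kinases that phosphorylate eIF2 alpha, EIF2AK1 read an intensity of 1209 in C4-2B against 2095 in C4-2B-MDVR. This kinase, HRI, was first described as the haem-regulated brake on globin synthesis. The difference was 0.79, and its other probe set gave 0.56, so both were higher in C4-2B-MDVR. EIF2AK3, the ER-resident kinase PERK, went from 429 to 364 (−0.24). EIF2AK4, which senses uncharged tRNA, went from 327 to 279.7 (−0.23). Its other probe set differed by −1.29, from 80.1 to 32.7, and the C4-2B-MDVR value lay under the floor of 43.5. How far EIF2AK4 was lower thus depends on the probe set and on the floor. ERN1, the kinase and endonuclease IRE1, was at 166 and 158 (−0.07), with its other probe sets at −0.44 and −0.04. For ATF6, a membrane-bound transcription factor, the chosen probe set was at 328 and 386 (0.23), but the other 2 above the floor were at −0.76 and −0.82. The probe sets of ATF6 thus gave opposite directions. Over the 5 sensors and kinases the median difference was −0.07, with 1 member beyond 1.5-fold.

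For the substrate of these kinases and the phosphatase subunits that reverse the mark, the chosen probe sets stayed within 1.5-fold in the values as deposited. EIF2S1, which encodes eIF2 alpha itself, was at 2095 and 1954 (−0.10). The other EIF2S1 probe sets differed by −0.50 and −0.64, so all 3 were lower in C4-2B-MDVR, the last by more than 1.5-fold. PPP1R15B, the constitutive subunit that directs the phosphatase to eIF2 alpha, went from 828 to 555 (−0.58), and was at −0.63 with each array centred on its median. PPP1R15A, its stress-induced counterpart GADD34, was at 82.3 and 93.5 (0.18), and its other probe set was at 0.37. The constitutive subunit was therefore lower and the inducible one slightly higher on these arrays.

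The transcription factors of the response were split in direction. DDIT3, which encodes CHOP, a factor tied to cell death under lasting stress, read 339.9 in C4-2B against 561 in C4-2B-MDVR. That is 1.65-fold higher (0.72), from the 1 probe set that the gene has. XBP1, whose spliced form drives chaperone and degradation genes, was at 901 and 1186 (0.40). Splicing of XBP1 was not measured. ATF4, the central factor of the integrated stress response, was at 4162 and 4651 (0.16), a small difference in an mRNA that is controlled mainly at translation. ATF3, an early stress-induced repressor, was at 167 and 217 (0.38), with its other probe sets at 0.18 and −0.33. ATF5, a relative of ATF4 linked to mitochondrial stress, was at 185 and 129 (−0.52). The other ATF5 probe sets ranged from −0.71 to 0.20, so its direction depends on the probe set.

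The CREB3-like factors are ER membrane proteins that, like ATF6, are released by cleavage. CREB3L4, which prostate epithelium expresses, read 682 in C4-2B against 466 in C4-2B-MDVR (−0.55). CREB3L2 went from 437 to 325 (−0.43), and −0.17 in the other probe set that passed the floor. CREB3L1 was at 110.1 and 121 (0.14). Over the 8 transcription factors 5 were above 0 and 3 below, with a median of 0.15. Taking the dimmest probe set above the floor for each gene turned that median to −0.0069, so the factors had no common direction.

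Genes that ATF4 and CHOP induce did not move as a block either. DDIT4 read 1768 in C4-2B against 3802 in C4-2B-MDVR, 2.15-fold higher (1.10). The gene has 1 probe set, and 2.67% of all genes above the floor had a difference as high or higher. DDIT4 is also induced by glucocorticoids, hypoxia and DNA damage, so it is not a marker of ER stress alone. CHAC1, which breaks down glutathione, was at 161 and 223 (0.47). TRIB3, a pseudokinase that is a classic target of ATF4 and CHOP, was lower instead, at 1089 and 787 (−0.47), with its other probe set at −0.44. The 3 effectors therefore lay on both sides of 0.

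**Figure D3:**
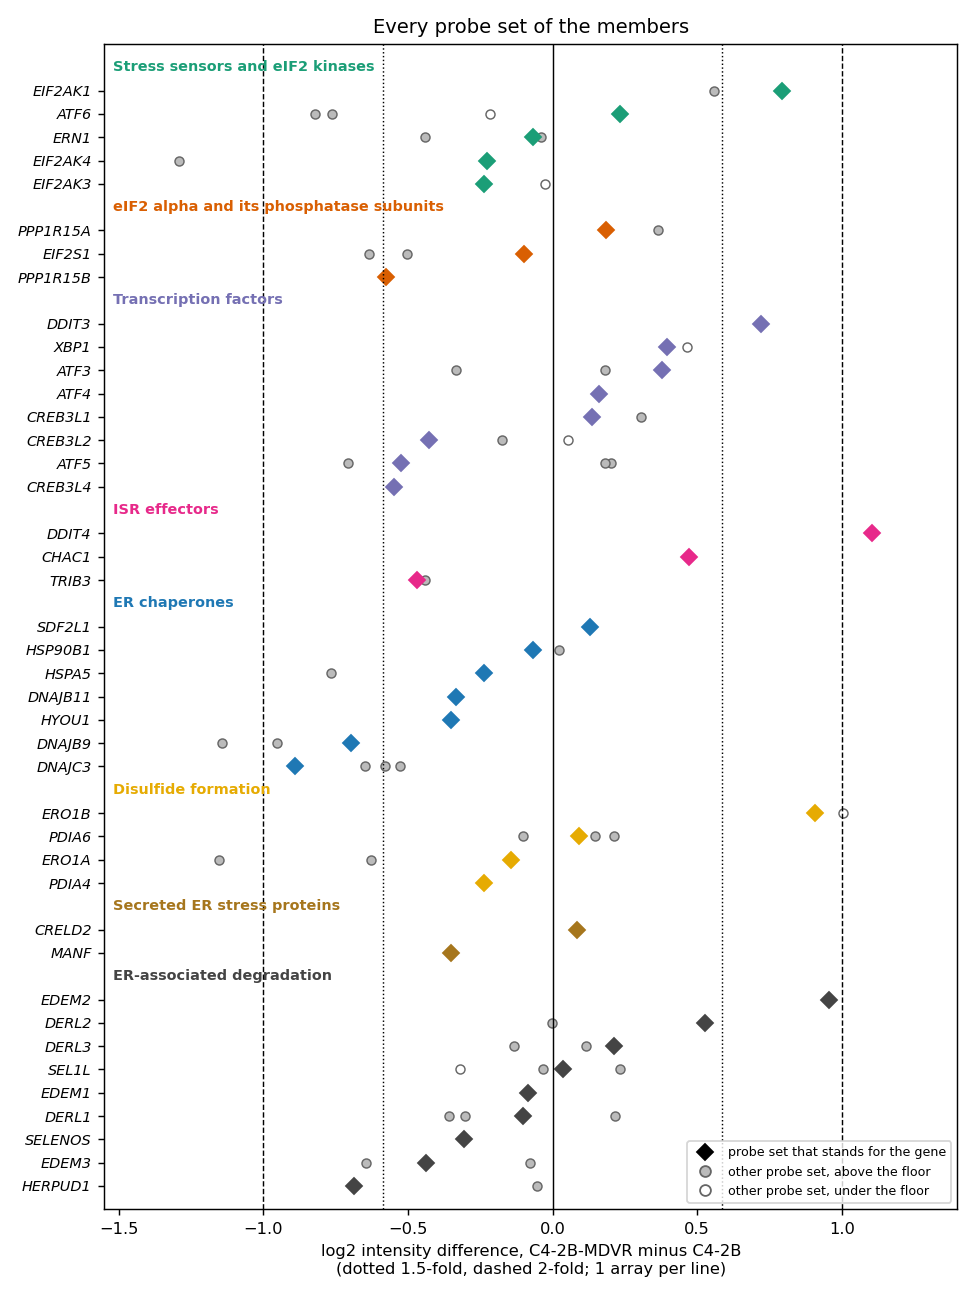
Log2 intensity difference (C4-2B-MDVR minus C4-2B, x axis) of every probe set of the 41 members, grouped by role; diamonds stand for the gene, grey circles are other probe sets above the floor and open circles lie under it. DNAJB9 and DNAJC3 lie left of 0 in all their probe sets, whereas ATF6, ATF5, ATF3 and DERL1 have probe sets on both sides of 0.

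Promoter sequences are shown for HSPA5 and HSP90B1, the chaperones usually read as reporters of the response, and for HERPUD1 and ERO1B, the members beyond 1.5-fold that held a searched motif. Each stretch is the 250 bases before the RefSeq start (GRCh38.p14), 5′ to 3′ in the direction of transcription, with the fixed letters of a motif match in capitals.
HSPA5, chr9:125241344-125241593, minus strand: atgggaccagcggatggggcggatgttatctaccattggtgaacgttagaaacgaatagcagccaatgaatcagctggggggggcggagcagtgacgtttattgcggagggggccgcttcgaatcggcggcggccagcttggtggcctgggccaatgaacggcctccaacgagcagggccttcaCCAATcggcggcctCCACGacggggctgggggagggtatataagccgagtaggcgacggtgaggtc
HSP90B1, chr12:103930160-103930409, plus strand: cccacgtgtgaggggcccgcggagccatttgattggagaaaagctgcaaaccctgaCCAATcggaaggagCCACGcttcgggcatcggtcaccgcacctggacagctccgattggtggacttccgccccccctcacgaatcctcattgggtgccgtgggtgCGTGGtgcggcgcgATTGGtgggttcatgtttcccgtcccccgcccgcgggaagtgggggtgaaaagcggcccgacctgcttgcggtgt
HERPUD1, chr16:56931892-56932141, plus strand: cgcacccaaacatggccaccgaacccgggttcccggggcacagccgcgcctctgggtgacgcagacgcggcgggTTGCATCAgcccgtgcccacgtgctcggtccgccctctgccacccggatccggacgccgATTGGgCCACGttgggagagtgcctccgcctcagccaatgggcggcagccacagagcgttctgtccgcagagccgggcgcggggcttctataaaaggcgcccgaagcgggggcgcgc
ERO1B, chr1:236281959-236282208, minus strand: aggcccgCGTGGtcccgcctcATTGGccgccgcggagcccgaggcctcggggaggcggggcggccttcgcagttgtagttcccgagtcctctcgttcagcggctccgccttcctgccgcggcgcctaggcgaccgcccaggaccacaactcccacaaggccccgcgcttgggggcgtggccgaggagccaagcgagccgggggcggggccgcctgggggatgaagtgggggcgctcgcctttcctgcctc

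The motifs were searched on both strands as exact letters. They were the ER stress response element ERSE (CCAAT, any 9 bases, then CCACG), bound by ATF6 with NF-Y, its variant ERSE-II (ATTGG, any 1 base, then CCACG), the unfolded protein response element UPRE (TGACGTGG), bound by XBP1, and the C/EBP-ATF response element CARE (TGATGCAA), bound by ATF4. The UPRE and ERSE-II matches of HYOU1 overlap. RefSeq promoters were found for 39 of the 42 members and 27305 genes in all, and a gene with several starts counted once. DERL1, DERL3 and EIF2AK1 had no entry, so EIF2AK1, a member beyond 1.5-fold, was not searched. ERSE was present in 6 members (15.4%) and in 0.0916% of all genes, and ERSE-II in 3 members (7.69%) and 0.0659% of all genes. UPRE was found in 1 member (2.56%) against 0.780% of all genes, and CARE in 3 (7.69%) against 0.967%. The members were listed as genes of this response and the promoters are reference sequence. The higher shares are therefore no result about these lines. In the stretches above, HSPA5 has 1 exact ERSE match, starting 66 bases before the start, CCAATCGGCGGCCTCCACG. HSP90B1 has 2 exact matches, in opposite orientations, and ERO1B has 1 in reverse, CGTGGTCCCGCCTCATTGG. Elements with other letters were not searched, so these are not counts of all ERSE-like elements. HERPUD1 holds an ERSE-II, ATTGGGCCACG, and a CARE in reverse, TTGCATCA. Beyond these, ERSE was found in XBP1, PDIA6 and CRELD2, ERSE-II in HYOU1 and SDF2L1, and CARE in CHAC1 and PPP1R15B.

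Members that share a motif did not share a direction. The 6 members with an ERSE ranged from −0.24 (HSPA5) to 0.91 (ERO1B), with 4 above 0, 2 below and a median of 0.09. PDIA6 (0.09), CRELD2 (0.09) and HSP90B1 (−0.07) were close to 0, and the signs of PDIA6 and HSP90B1 changed with the probe set. The ERO1B value is measured against a C4-2B level under the floor, and was 0.26 when that level was set to the floor, below XBP1 at 0.40. The 3 with an ERSE-II ranged from −0.69 (HERPUD1) to 0.13 (SDF2L1). For CARE, CHAC1 was at 0.47 and HERPUD1 and PPP1R15B were at −0.69 and −0.58. The 27 measured members with no match ranged from −0.89 to 1.10, with a median of −0.14. A match is a description of the letters and not a measurement of binding.

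The ER chaperones were the role with the most uniform direction, 6 of 7 being lower in C4-2B-MDVR. Their median difference was −0.33. Of the 7, 2 were lower by 1.5-fold or more (28.6%, background 9.32%) and 0 were higher (background 8.26%). At a mean log2 level of 8 or more the background of lower genes was 10.4%. Of all genes 55.1% were above 0, and of those with a mean log2 level of 8 or more 45.8% were. HSPA5, which encodes BiP, read 7228 in C4-2B against 6126 in C4-2B-MDVR (−0.24), and its other probe set was at −0.77. HSP90B1, the ER form of HSP90, was at 1562 and 1490.3 (−0.07), with its other probe set at 0.02. The names of both HSP90B1 probe sets mark shared sequence, and 2 more that carry a second symbol were not used. HYOU1, a nucleotide exchange factor of BiP, went from 2003 to 1569.9 (−0.35). The main chaperones were thus close to equal or slightly lower.

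The J-domain co-chaperones, which deliver clients to BiP, were also lower, with DNAJC3 and DNAJB9 beyond 1.5-fold. DNAJC3, also known as p58IPK, read 616 in C4-2B against 332 in C4-2B-MDVR, 1.86-fold lower (−0.89). The other DNAJC3 probe sets were at −0.65, −0.58 and −0.53, so all 4 were lower. DNAJB9, or ERdj4, a co-chaperone that also restrains IRE1, went from 599 to 369.6, 1.62-fold lower (−0.70). Its other probe sets gave −0.95 and −1.14. DNAJB11, or ERdj3, was at 1401 and 1111.5 (−0.33). SDF2L1, which partners DNAJB11, was the 1 chaperone gene above 0, at 1081 and 1182 (0.13).

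Enzymes of disulfide formation were mixed. ERO1B, an oxidase best known from secretory endocrine cells, read 26.8 in C4-2B, under the floor, against 50.3 in C4-2B-MDVR. The measured difference was 0.91, but against the floor it was at least 1.20-fold higher, and its other probe set was under the floor on both arrays. ERO1A, the widely expressed oxidase, was at 657 and 595 (−0.14). The other ERO1A probe sets were lower by more, at −0.63 and −1.16. PDIA4, a disulfide isomerase, was at 1687 and 1431 (−0.24), with the same value, −0.24, in its other probe set. PDIA6, an isomerase that attenuates IRE1 and PERK, was at 2588 and 2755 (0.09), with its other probe sets between −0.10 and 0.21. The oxidases therefore differed in direction, with ERO1B close to the limit of detection. Of the secreted proteins of ER stress, MANF was at 3024 and 2371 (−0.35) and CRELD2 at 1897 and 2012 (0.09).

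In ER-associated degradation, which returns misfolded proteins to the cytosol for the proteasome, members were found on both sides. HERPUD1, a scaffold of the degradation complex and a strongly stress-induced gene, read 3245 in C4-2B against 2014 in C4-2B-MDVR. It was 1.61-fold lower (−0.69), whereas its other probe set, close to the floor on both arrays, was at −0.06. EDEM2, which starts the trimming of mannose from glycoproteins, went the other way, from 124 to 241, 1.94-fold higher (0.95) in its 1 probe set. Its relatives were not higher. EDEM1 was at 453 and 427 (−0.08). EDEM3 was at 319 and 236 (−0.44), with its other probe sets at −0.08 and −0.65.

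The derlins are membrane proteins of the exit channel. DERL2 read 762 in C4-2B against 1099 in C4-2B-MDVR (0.53), but its other probe set was level, at −0.0027. DERL1 was at 952 and 886 (−0.10), with its other probe sets between −0.36 and 0.21. DERL3, most abundant in secretory tissues, was at 85.0 and 98.4 (0.21), with others at 0.12 and −0.13. The derlins therefore had no direction shared by their probe sets. SEL1L, the partner of the ubiquitin ligase SYVN1, was at 271 and 278 (0.04). SELENOS, a selenoprotein that recruits the segregase VCP, went from 1575 to 1273 (−0.31). Of the 9 measured degradation genes 4 were above 0 and 5 below, with a median of −0.08.

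Probe sets offer the 1 check within an array that these data allow, though they share the RNA sample and are not replicates. The members had 88 probe sets with a single symbol, 82 of them above the floor. Of 24 members with more than 1 above the floor, 15 (62.5%) had them all on the same side of 0, against 61.4% of all such genes. In 3 of the 24 the probe sets disagreed by 1 or more on the log2 scale (12.5%, against 8.86% of all such genes). These were ATF6, ERO1A and EIF2AK4, the last through a C4-2B-MDVR value under the floor. Of 13 members with 3 or more probe sets above the floor, 6 were lower in all and 0 higher in all, where 24.9% of all such genes were lower in all and 23.4% higher in all. The 6 were DNAJB9, DNAJC3, EIF2S1, EDEM3, ERN1 and ERO1A.

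Other genes of the same pathways were described in the same way, from lists that hold none of the members. These lists were also chosen with earlier results of these data known, so they are no independent check. Of 24 further ATF4 targets above the floor, 12 were above 0 and 12 below (median −0.04). By 1.5-fold 2 were higher (8.33%, background 8.26%) and 4 lower (16.7%, background 9.32%), and 0 were beyond 2-fold. Over all genes with a mean log2 level of 8 or more, 6.09% were higher and 10.4% lower by 1.5-fold. The largest differences were those of CTH, which makes cysteine (−0.96), the cystine transporter SLC7A11 (−0.76), the leucine transporter subunit SLC7A5 (−0.70) and SESN2, a leucine sensor and inhibitor of mTORC1 (0.72). Among these 4, SESN2 was higher and CTH, SLC7A11 and SLC7A5 were lower. The other CTH probe set above the floor was at −0.36. DDIT4, another inhibitor of mTORC1, was higher too, and a link between it and SESN2 was not tested. ASNS, the asparagine synthetase often used as a readout of ATF4, was at 0.11.

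Of 19 further ER folding genes 14 were below 0 (73.7%), where 54.2% of all genes with a mean log2 level of 8 or more were. The median of the list was −0.23, and 3 were lower by 1.5-fold (15.8%, background 9.32%, or 10.4% at that level) and 0 higher. These 3 were DNAJC10, a reductase co-chaperone of BiP (−0.87), the lectin chaperone calnexin, CANX (−0.80), and the prolyl isomerase FKBP11 (−0.79). PRDX4, an ER peroxiredoxin, was next at −0.47. With all probe sets of a gene averaged, the list median was −0.037, so its size depends on the probe sets. Of 17 translocon genes, which bring proteins into the ER, 11 were below 0 (median −0.17). SPCS3 of the signal peptidase was at −1.64 from a probe set whose name marks shared sequence, with others up to −0.54. SRPRA was at −0.83, SSR1 at −0.58 and SSR4 at 0.37. The 6 SSR1 probe sets above the floor were all lower, from −1.44 to −0.38.

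In the chosen probe sets, genes of regulation and disposal stayed within 1.5-fold. This held for the 15 further degradation genes (median −0.07), in which the conjugating enzymes UBE2J1 (−0.47) and UBE2G2 (−0.29) were lower and OS9 (0.41) and UFD1 (0.36) higher. It held as well for the 14 other genes of eIF2 and its regulators (median 0.03). There EIF2S3, the gamma subunit of eIF2, was at −0.53, IMPACT, an inhibitor of GCN2, at −0.21, and the exchange factor subunits EIF2B1 and EIF2B2 were at 0.32 and 0.29. The 10 genes for processing and partner factors had a median of 0.12. WFS1, an ER membrane protein of calcium handling, was at 0.56, CREB3 at 0.38, and the NF-Y subunits NFYC and NFYB, which bind ERSE with ATF6, at 0.46 and −0.39. Other probe sets above the floor went further in 6 genes of these 3 lists, and all 10 such probe sets were lower. They reached −1.71 for the ubiquitin ligase MARCHF6, −1.25 for UBE2J1 and −0.85 for IMPACT. For NFYA, the kinase EIF2AK2 and NFYB they reached −0.73, −0.69 and −0.66. Several belong to the same gene, UBE2J1 or MARCHF6. The C4-2B-MDVR values of NFYA and of the dimmest for UBE2J1 (log2 5.45 and 5.46) were close to the floor of 5.44. The share of all probe sets on the array that went as far was not computed, so no common direction is read from these 10.

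**Figure D4:**
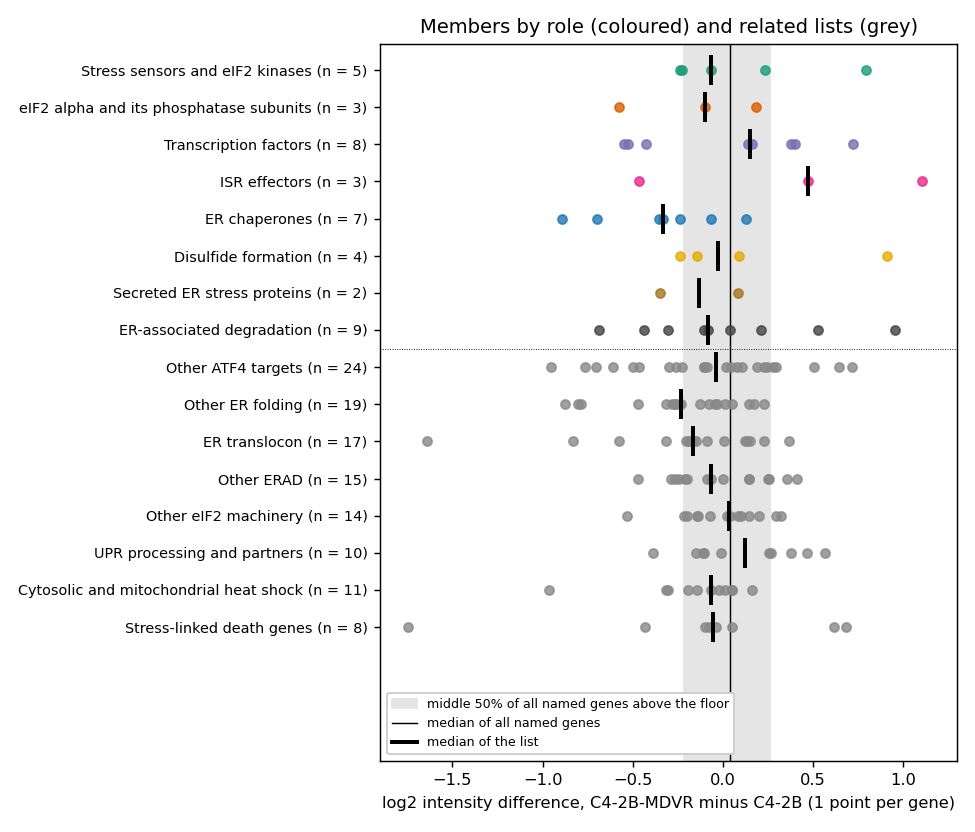
Log2 intensity difference (C4-2B-MDVR minus C4-2B, x axis) of each gene above the floor, 1 point per gene, for the members by role (coloured) and the related lists (grey); black bars are list medians and the grey band is the middle 50% of all named genes. The ER chaperones (median −0.33) and the further ER folding genes (−0.23) lie furthest to the left, and the ISR effectors (integrated stress response; median 0.47, 3 genes) furthest to the right.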

How the data were processed

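The authors deposited 1 intensity per probe set and array on a linear scale, as the range of the values shows. Total RNA was isolated with Trizol, amplified from 100 ng and biotin-labelled, per the labels' protocols. How background was corrected and values were normalized and summarized is not given in the sources used here. The deposited intensities were used unchanged, log2 was taken, and the arrays were subtracted. Of 54675 probe sets 41097 had 1 gene symbol in the platform annotation of 2016, 1801 had several and 11777 are unnamed here. By Entrez identifier 41043 of the 41097 matched RefSeq genes of GRCh38.p14, and 0 symbols changed. The probe set with the highest mean log2 value stood for a gene. The floor was each array's median log2 intensity (5.39 and 5.44). Calls rest on 2-fold and 1.5-fold differences, with no test.

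The members and lists were chosen with earlier results of these data known. Every member is named, and of each related list the 4 genes above the floor with the largest absolute difference. ASNS, MARCHF6, NFYA, EIF2AK2 and HSP90AB1 were named after their values were seen. Promoters were shown for members beyond 1.5-fold that held a motif, and for HSPA5 and HSP90B1. Some listed genes are not reported here. Alternatives were other scalings, probe set rules, floors and thresholds. The steps were tested on simulated data. Python 3.11.15, numpy 2.4.6, pandas 2.3.3, statsmodels 0.14.6 and matplotlib 3.10.9 were used.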

Additional observations from a re-analysis of the deposited data

How the results depend on the processing

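Results were recomputed under 12 other settings. With 1.5-fold in place of 2-fold, 5 members were higher and 3 lower, and 1110 and 1252 of all genes. With 3-fold, 0 members were higher, and 195 of all genes were higher and 161 lower. Quantile normalization brought EDEM2 past 2-fold, so 2 members were higher. With the dimmest probe set above the floor 2 members were 2-fold lower, DNAJB9 and EIF2AK4. The C4-2B-MDVR value of EIF2AK4 lay under the floor there. In the same setting the median of the transcription factors turned to −0.0069. That setting also gave 9 members lower by 1.5-fold, and median centring gave 5, where 3 were lower as deposited. Averaging all probe sets of each gene left 302 of all genes 2-fold lower, and a floor at the 75th percentile 280 higher, since fewer genes passed it. The median member difference kept its sign, from −0.16 to −0.036. DNAJC3 and DNAJB9 stayed lower by 1.5-fold or more in every setting of scaling, probe set and floor. DDIT4, EDEM2 and DDIT3 stayed higher by as much in every scaling and floor, and have 1 probe set each, so the probe set rules could not change them. The signs of ATF3, ATF6, DERL1, DERL2, DERL3, HSP90B1, PDIA6 and SEL1L changed with the probe set, and that of SEL1L with median centring too. HERPUD1 ranged from −0.74 to −0.06. Low signal limits ERO1B. No paired analysis was possible because each line has 1 array.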

Other observations

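Heat shock genes outside the ER were close to level. Of 11 above the floor 4 were above 0 and 7 below, with a median of −0.07. HSPH1, a nucleotide exchange factor of the cytosolic HSP70 chaperones, went from 3675 in C4-2B to 1886 in C4-2B-MDVR (−0.96), with other probe sets between −1.61 and −0.88, so all 3 were lower. The other named members of the list, BAG3 (−0.32), HSPE1 (−0.30) and HSPB1 (−0.20), lay within 1.5-fold. HSP90AB1, named after its value was seen, was at −0.15.

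Of 8 genes that link ER stress to cell death, 2 were higher (25%, background 8.26%) and 1 lower (12.5%, background 9.32%) by 1.5-fold. Their median was −0.06. MAP3K5, or ASK1, a kinase that IRE1 engages through TRAF proteins, read 269.8 in C4-2B against 80.4 in C4-2B-MDVR, a difference of −1.75, and its other probe set was at −0.99. CASP4, an inflammatory caspase, was at 0.68 and the pore-forming BAX at 0.62, with its other probe set at 0.85. PMAIP1, or NOXA, was at −0.43. BAX and PMAIP1 also belong to the response to DNA damage.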
